A study of Saccharomyces cerevisiae with 6 samples.

Results

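The genes described are 10 antioxidant and redox defence genes of *Saccharomyces cerevisiae*, chosen by their identifiers as enzymes that remove reactive oxygen species and as the thioredoxin system that keeps such enzymes reduced. They are *SOD1*, the catalase genes *CTT1* and *CTA1*, *CCP1*, *TSA1*, *AHP1*, *GPX2*, *TRX1*, *TRX2* and *TRR1*. All 10 were among the 5913 genes listed in the data and among the 5805 that passed the filter on low values. The RNA-seq compared *not4Δ* cells of the BY4741 background that expressed Not4WT or Not4RRM, with 3 replicate cultures of each and 6 samples in all, to ask what the RRM and C3H1 domains of the ubiquitin ligase Not4 contribute to gene expression. Both groups lacked chromosomal *NOT4* and carried a centromeric *URA3* plasmid that expressed FLAG-tagged Not4 from the *ADH1* promoter, in synthetic complete medium without uracil. In Not4RRM, conserved residues of these domains had been changed to alanine. The *ADH1* promoter replaces that of *NOT4*, no wild-type strain with chromosomal *NOT4* was analysed here, and the labels do not say how many transformants the cultures came from, so that p-values measure the spread between these samples.

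Superoxide that escapes from respiration is converted by superoxide dismutase to hydrogen peroxide, which catalases split to water and oxygen and which peroxidases reduce with electrons from a donor. In yeast the peroxiredoxins and the glutathione peroxidase family draw these electrons mainly from thioredoxin, which thioredoxin reductase recharges with NADPH, while cytochrome c peroxidase takes them from cytochrome c in mitochondria. Many of these genes are known targets of the transcription factors Yap1 and Skn7, which respond to peroxide, and some of Msn2 and Msn4, which respond to many stresses.

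By limma's threshold of an adjusted p under 0.05 and a 1.5-fold change, 0 of the 10 genes were called, as were 0 of all tested genes, a share of 0%. In 3 of them the groups did not overlap, 1 higher (12.4% of all tested genes) and 2 lower (12.2%) in Not4RRM. *GPX2* had higher values in every Not4RRM replicate than in any Not4WT replicate, and its mean was 2.6-fold higher. *CCP1* and *CTA1* had lower values in every Not4RRM replicate, with ratios of the means of 0.639 and 0.713. In the other 7 genes the groups overlapped.

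The values are read counts that the authors scaled to a common total of about 14881818 to 14881884 per sample, so that the depth of each library before scaling is unknown. The *NOT4* value was 3.32-fold higher with Not4RRM (log2 fold change 1.87, limma adjusted p = 0.0715). The authors also reported more Not4 protein and *NOT4* mRNA with Not4RRM, so that the mutation and the Not4 level cannot be told apart here. The value of the plasmid marker *URA3* was 5.26-fold higher with Not4RRM (limma adjusted p = 0.0715). Of the other markers of BY4741, *LEU2* was at 11 to 19, *MET17* at 14 to 26 and *HIS3*, which is deleted only in part, at 805 to 2521. The 5 markers of *MAT*a cells summed to 20922 to 25736 in Not4WT and to 11258 to 33496 in Not4RRM, and the 3 of *MAT*α cells to at most 303. The genes of chromosome VIII were higher in Not4RRM, with a median log2 fold change of 0.65 over 275 genes, and no gene of the 10 lies on it. Not4RRM replicate 1 stood apart from replicates 2 and 3, with a correlation of log2 values across genes of 0.952 and 0.947, against 0.994 between replicates 2 and 3 and 0.963 between Not4RRM replicate 1 and Not4WT replicate 1, and its values deviated with coding length (Spearman rho -0.54 across genes, which are not independent). The samples did not sort by group alone. Not4WT replicate 3 correlated at 0.983 and 0.979 with Not4RRM replicates 2 and 3, and at 0.984 and 0.968 with Not4WT replicates 1 and 2. In Not4WT replicate 2 the genes under 500 bp were low, with a median deviation of -0.39 on the log2 scale from the Not4WT mean, against 0.13 and 0.28 in the other Not4WT replicates and 0.38 to 0.43 in the Not4RRM replicates.

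*GPX2* (YBR244W, chromosome II, 707528 to 708016 of the R64 assembly, forward strand) encodes a peroxidase of the glutathione peroxidase family that acts on lipid hydroperoxides. *TRX2* (YGR209C, chromosome VII, 912913 to 913227, reverse strand) encodes a cytosolic thioredoxin. Their upstream stretches are shown because they were the only genes of the 10 that were higher in Not4RRM by 1.5-fold or more. Both also hold the Yap1 response element TTACTAA. The groups overlapped in *TRX2*, whose log2 fold change was 0.87 (limma adjusted p = 0.441). It was 0.52 with the trend with coding length removed and 0.34 without Not4WT replicate 2, both short of 1.5-fold. Each stretch covers the bases from 280 to 101 before the start codon and is printed in the direction of the gene, from the RefSeq genome of R64. Capitals mark matches on either strand to TTACTAA (reverse complement TTAGTAA), to the stress response element AGGGG bound by Msn2 and Msn4 (CCCCT) and to the CCAAT box bound by the Hap2/3/4/5 complex (ATTGG). The *GPX2* stretch is chrII:707248-707427 on the forward strand and the *TRX2* stretch chrVII:913328-913507 on the reverse strand, of which the first 5 bases printed belong to the coding sequence of the neighbour YGR210C.
GPX2: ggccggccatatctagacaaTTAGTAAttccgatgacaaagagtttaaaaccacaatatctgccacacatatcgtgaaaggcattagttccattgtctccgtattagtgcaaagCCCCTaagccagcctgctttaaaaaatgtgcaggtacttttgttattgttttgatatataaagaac
TRX2: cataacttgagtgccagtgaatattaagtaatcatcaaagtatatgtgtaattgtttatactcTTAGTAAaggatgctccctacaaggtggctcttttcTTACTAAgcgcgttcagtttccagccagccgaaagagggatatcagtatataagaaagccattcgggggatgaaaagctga
In *GPX2* the marked TTACTAA match starts 260 bases before the start codon and the AGGGG match 166 bases before it, and a further TTACTAA match outside the stretch starts at 417. In *TRX2* the 2 marked TTACTAA matches start at 217 and 181.

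*CCP1* (YKR066C, chromosome XI, 566113 to 567198, reverse strand) encodes cytochrome c peroxidase, a heme enzyme of the mitochondrial intermembrane space. *CTA1* (YDR256C, chromosome IV, 968133 to 969680, reverse strand) encodes catalase A, the heme catalase of peroxisomes. The same part of their upstream regions, chrXI:567299-567478 and chrIV:969781-969960 on the reverse strand, is shown for the 2 genes whose Not4RRM values were all below those of Not4WT.
CCP1: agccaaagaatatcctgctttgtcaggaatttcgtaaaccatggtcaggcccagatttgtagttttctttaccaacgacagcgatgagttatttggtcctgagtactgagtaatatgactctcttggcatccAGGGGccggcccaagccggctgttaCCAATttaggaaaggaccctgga
CTA1: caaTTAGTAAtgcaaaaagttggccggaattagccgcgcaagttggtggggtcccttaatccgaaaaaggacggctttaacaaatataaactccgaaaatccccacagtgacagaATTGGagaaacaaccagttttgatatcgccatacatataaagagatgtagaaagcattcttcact
*CCP1* has an AGGGG match at 148 and a CCAAT match at 123 bases before its start codon, and *CTA1* has a TTACTAA match at 277 and a CCAAT match at 165. TTACTAA was thus found upstream of a gene on each side of the comparison. In windows of 500 bases before the start codon, TTACTAA was present for 5 of the 10 genes (*SOD1*, *CTA1*, *AHP1*, *GPX2*, *TRX2*) and for 11.9% of 5783 promoters. The related form TGACTAA was found for *TRR1* alone, and for 6.14% of promoters. AGGGG was present for 7 of the 10 and 34.0% of promoters, and CCAAT for 7 of the 10 and 62.3%. The motif of the heme-dependent factor Hap1 was found for 0 of the 10 and 0.346% of promoters. A match gives only the letters in the window.

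*GPX2* measured 246, 115 and 267 scaled counts in Not4WT replicates 1 to 3 and 423, 565 and 645 in Not4RRM replicates 1 to 3. The groups did not overlap, and the lowest value of all 6 was in Not4WT replicate 2. The means were 209 ± 82.4 (SD, n = 3) and 544 ± 112 (SD, n = 3). On the log2 scale of TMM-scaled values with a pseudocount of 1, which is used for all fold changes below, the difference was 1.57 (standard error, SE, 0.36, 95% interval 0.74 to 2.40, limma adjusted p = 0.131). This fold change was larger than that of 99.5% of the tested genes. The 200 genes closest in coding length to *GPX2* had a median of 0.38, and with the trend with length removed from each sample the value for *GPX2* was 1.29. Without Not4RRM replicate 1 it was 1.73 and passed limma's threshold (adjusted p = 0.0443), and without Not4WT replicate 2 it was 1.16 (limma adjusted p = 0.337).

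Two-sided exact permutation of 3 samples against 3 gives a p of 0.1 at the lowest, which is the p of *GPX2*, *CCP1* and *CTA1*. As 12.4% of all tested genes had every Not4RRM value above every Not4WT value and 12.2% had every one below, 1 higher and 2 lower genes of 10 were close to these shares. With the values as deposited the shares were 7.89% and 18.7%, and the same 3 genes did not overlap. At an unadjusted p under 0.05, limma's test counted 923 genes in all, among them *GPX2* on the higher side (9.84% of tested genes) and *CCP1* and *CTA1* on the lower side (6.06%). By the study's own steps, which apply an unequal-variance test to the deposited values with an unadjusted p under 0.05 and a 1.5-fold change and then adjust within the resulting list by the Benjamini-Hochberg method (352 genes before and after), *GPX2* passed as higher (2.22% of tested genes) and *CCP1* as lower (3.84%). That adjustment could not remove a gene, as every unadjusted p in the list was already under 0.05.

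**Figure D1:**
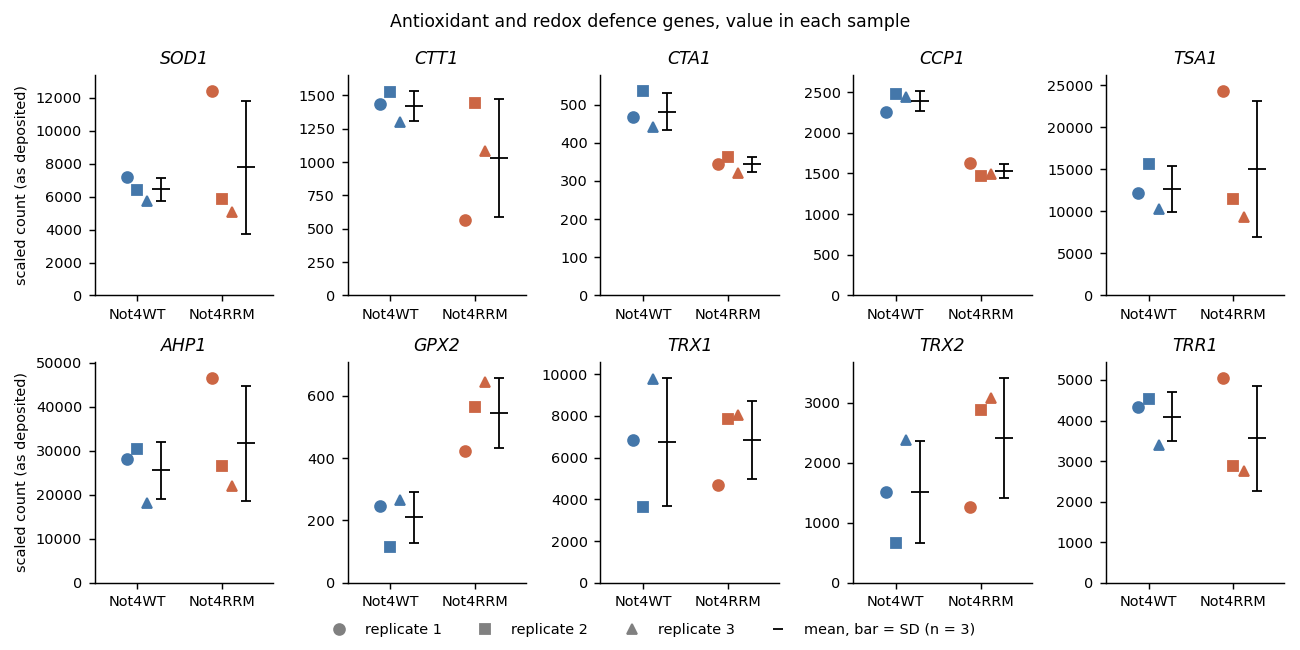
Scaled counts as deposited (vertical axis, from 0) of the 10 antioxidant and redox defence genes in each Not4WT (blue) and Not4RRM (orange) sample, with circles, squares and triangles for replicates 1, 2 and 3, and with the mean and SD of 3 samples beside them. *GPX2* lies at 423 to 645 in Not4RRM above 115 to 267 in Not4WT, *CCP1* and *CTA1* lie lower in Not4RRM without overlap, and in *SOD1* and *TSA1* Not4RRM replicate 1 alone is high.

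*CCP1* measured 2250, 2480 and 2443 scaled counts with Not4WT and 1630, 1467 and 1488 with Not4RRM. The groups were separated by more than the range within either, and no replicate stood apart. The means were 2391 ± 124 (SD, n = 3) and 1528 ± 88.7 (SD, n = 3), with coefficients of variation of 5.2% and 5.8%, where the medians over all tested genes were 14.1% and 20.1%. The log2 fold change was -0.52 (SE 0.16, 95% interval -0.89 to -0.16, limma adjusted p = 0.207), and genes of like length had a median of 0.01. Without Not4RRM replicate 1 the value was -0.58 with a limma adjusted p of 0.0414, which is below 0.05 but short of a 1.5-fold change.

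The 2 catalase genes had different patterns. *CTA1* measured 467, 536 and 441 scaled counts in Not4WT and 345, 363 and 322 in Not4RRM. The groups did not overlap and the replicates lay close together, with coefficients of variation of 10.2% and 6.0%. The means were 481 ± 49.1 (SD, n = 3) and 343 ± 20.6 (SD, n = 3), and the log2 fold change was -0.36 (SE 0.15, 95% interval -0.70 to -0.02, limma adjusted p = 0.295). *CTT1* (YGR088W, chromosome VII, 654634 to 656322, forward strand), which encodes the cytosolic catalase T, measured 1436, 1524 and 1300 in Not4WT and 564, 1445 and 1079 in Not4RRM. On the log2 scale of TMM-scaled values, Not4RRM replicate 1 was 2.26-fold below the mean of replicates 2 and 3. In the values as deposited, replicate 2 of Not4RRM was between the lowest and the highest Not4WT value. The log2 fold change of *CTT1* was -0.44 (SE 0.33, limma adjusted p = 0.509), and -0.07 without Not4RRM replicate 1.

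The genes for the abundant peroxide and superoxide scavengers were high in 1 replicate of Not4RRM. *SOD1* (YJR104C, chromosome X, 622550 to 623014, reverse strand), which encodes the cytosolic copper-zinc superoxide dismutase, measured 7182, 6379 and 5754 scaled counts in Not4WT and 12428, 5864 and 5088 in Not4RRM. *TSA1* (YML028W, chromosome XIII, 220138 to 220728, forward strand), which encodes the main cytosolic peroxiredoxin, measured 12156, 15666 and 10238 in Not4WT and 24340, 11525 and 9336 in Not4RRM. *AHP1* (YLR109W, chromosome XII, 368781 to 369311, forward strand), which encodes a peroxiredoxin that prefers organic hydroperoxides, measured 28138, 30381 and 18092 in Not4WT and 46473, 26445 and 22014 in Not4RRM. In all 3 genes Not4RRM replicate 1 was the highest sample, by 2.23-fold, 2.3-fold and 1.88-fold over the mean of the other Not4RRM replicates on the log2 scale of TMM-scaled values, and those 2 replicates lay within or below the range of Not4WT.

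The means of *SOD1* were 6438 ± 716 (SD, n = 3) in Not4WT and 7793 ± 4032 (SD, n = 3) in Not4RRM, and the log2 fold change was 0.29 (SE 0.33, limma adjusted p = 0.671). For *TSA1* they were 12687 ± 2753 and 15067 ± 8105 (SD, n = 3 each), with a log2 fold change of 0.27 (SE 0.36, limma adjusted p = 0.727). Both differences were smaller than the spread among the Not4RRM replicates, and both turned negative without Not4RRM replicate 1, to -0.12 and -0.16. For *AHP1* the means were 25537 ± 6544 and 31644 ± 13032 (SD, n = 3 each), with a log2 fold change of 0.39 (SE 0.33, limma adjusted p = 0.562), which was 0.07 without that replicate. The 95% intervals reached from -0.48 to 1.06 for *SOD1*, from -0.57 to 1.10 for *TSA1* and from -0.38 to 1.17 for *AHP1*, so that a change of 1.5-fold in the higher direction lay within each.

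Among the 10 genes the thioredoxin genes varied most between the Not4WT replicates, with coefficients of variation of 45.7% and 56.7%. *TRX1* (YLR043C, chromosome XII, 231702 to 232013, reverse strand), which encodes the other cytosolic thioredoxin, measured 6818, 3610 and 9752 scaled counts in Not4WT and 4679, 7834 and 8031 in Not4RRM. *TRX2* measured 1508, 658 and 2374 in Not4WT and 1255, 2886 and 3081 in Not4RRM. In both genes Not4WT replicate 2 was the lowest sample, 2.39-fold and 3.04-fold below the mean of the other Not4WT replicates, and Not4RRM replicate 1 was 1.73-fold and 2.43-fold below the mean of its group's other replicates. The means of *TRX2* were 1513 ± 858 and 2407 ± 1003 (SD, n = 3 each), and the log2 fold change was 0.87 (SE 0.54, 95% interval -0.37 to 2.12, limma adjusted p = 0.441). Leaving out Not4RRM replicate 1 gave 1.27 (limma adjusted p = 0.149), and leaving out Not4WT replicate 2 gave 0.34 (limma adjusted p = 0.863). For *TRX1* the means were 6727 ± 3072 and 6848 ± 1881 (SD, n = 3 each), with a log2 fold change of 0.22 (SE 0.41, limma adjusted p = 0.806) that turned to -0.20 without Not4WT replicate 2. *TRX1* and *TRX2* are the shortest of the 10, with coding lengths of 312 and 315 bp, and the 200 genes closest to each in length had median log2 fold changes of 0.47 and 0.44.

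*TRR1* (YDR353W, chromosome IV, 1183299 to 1184258, forward strand) encodes the cytosolic thioredoxin reductase that serves both thioredoxins. It measured 4341, 4528 and 3399 scaled counts in Not4WT and 5044, 2884 and 2752 in Not4RRM. Not4RRM replicate 1 was above all Not4WT samples, while replicates 2 and 3 were below them. The means were 4089 ± 605 and 3560 ± 1287 (SD, n = 3 each), and the log2 fold change was -0.12 (SE 0.26, limma adjusted p = 0.836). Leaving out Not4RRM replicate 1 gave -0.42 and leaving out replicate 2 gave 0.01, so that the direction rested on single samples.

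Of the 10 genes, 6 had a positive and 4 a negative log2 fold change, with a median of 0.25. The median of all tested genes was 0.05, and 54.9% of them were positive. For the 200 genes nearest in length to each of the 10, medians ran from -0.09 (*CTT1*) to 0.47 (*TRX1*). With the length trend removed, 4 of the 10 were positive and 6 negative (*SOD1* at 0 after rounding), with a median of -0.065. The sign of the median thus depended on whether that trend was removed. With scaling to equal totals in place of TMM, log2 fold changes were shifted by -0.12, and the 10 genes kept their directions. *GPX2* and *TRX2* were higher by 1.5-fold or more (13.2% of tested genes) and 0 of the 10 were lower by as much (3.58%). Without Not4RRM replicate 1 the groups did not overlap in 5 of the 10, with *GPX2* and *TRX2* higher (27.3% of tested genes) and *CCP1*, *CTA1* and *TRR1* lower (25.2%), and 1 of the 10 was called, where 6.42% of tested genes were. In that comparison of 3 samples with 2, the median of the 10 was -0.10. With sample quality weights *GPX2* and *TRX2* were called, beside 18.3% of tested genes, and *GPX2* alone both without Not4WT replicate 2 and Not4RRM replicate 1 together (8.52%) and with the length trend removed and Not4RRM replicate 1 left out (6.82%).

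**Figure D2:**
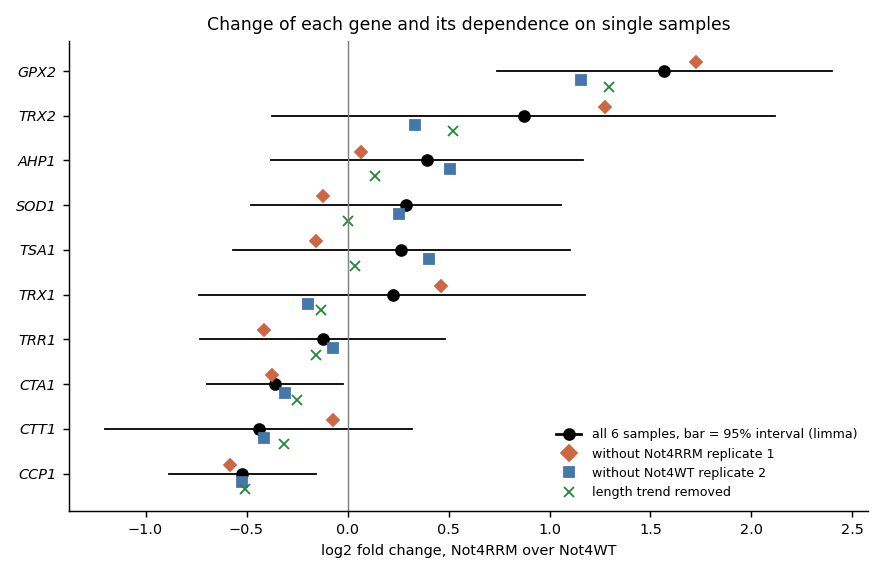
Log2 fold change of Not4RRM over Not4WT (horizontal axis, TMM-scaled values) for the 10 genes, with the value from all 6 samples and its 95% interval in black and the values without Not4RRM replicate 1 (orange diamonds), without Not4WT replicate 2 (blue squares) and with the length trend removed (green crosses). The intervals of *GPX2*, *CTA1* and *CCP1* leave out 0, while *SOD1* and *TSA1* cross 0 without Not4RRM replicate 1 and *TRX1* without Not4WT replicate 2.

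The departures of single replicates sorted the 10 genes in a way that the groups did not. In Not4RRM replicate 1, on the log2 scale of TMM-scaled values against the mean of replicates 2 and 3, *TSA1* (1.20), *SOD1* (1.15), *AHP1* (0.91) and *TRR1* (0.81) were above, and *TRX2* (-1.28), *CTT1* (-1.18), *TRX1* (-0.79) and *GPX2* (-0.54) were below. *CCP1* (0.11) and *CTA1* (-0.02) were close to the other replicates. The median size of this departure over all tested genes was 0.44, and a departure of 2-fold or more was found in 5.5% of genes upward and in 8.35% downward, against 2 of the 10 upward and 2 downward. In Not4WT replicate 2, *TRX2* (-1.60), *TRX1* (-1.26) and *GPX2* (-1.23) were 2-fold or more below the mean of replicates 1 and 3, as were 7.61% of tested genes, and 0 of the other 7 genes were.

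Coding length moved with part of these departures, and its part in them was not tested beyond the values given here. The genes nearest in length to *TRX1*, *TRX2* and *GPX2* had median departures of -0.63, -0.60 and -0.29 in Not4WT replicate 2, in the same direction as the 3 genes and of smaller size. In Not4RRM replicate 1 those of like length to *TRX1* and *TRX2* had medians of -0.32 and -0.30, and those of like length to *SOD1* and *TSA1* of 0.21 and 0.35. Other medians had the opposite sign to the gene, for *GPX2* in Not4RRM replicate 1 (0.22 against -0.54) and for *TSA1* (-0.18 against 0.41), *AHP1* (-0.29 against 0.35) and *TRR1* (-0.04 against 0.16) in Not4WT replicate 2. Whole cultures were sampled, so that a lower RNA level per cell and fewer cells with the RNA cannot be told apart.

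**Figure D3:**
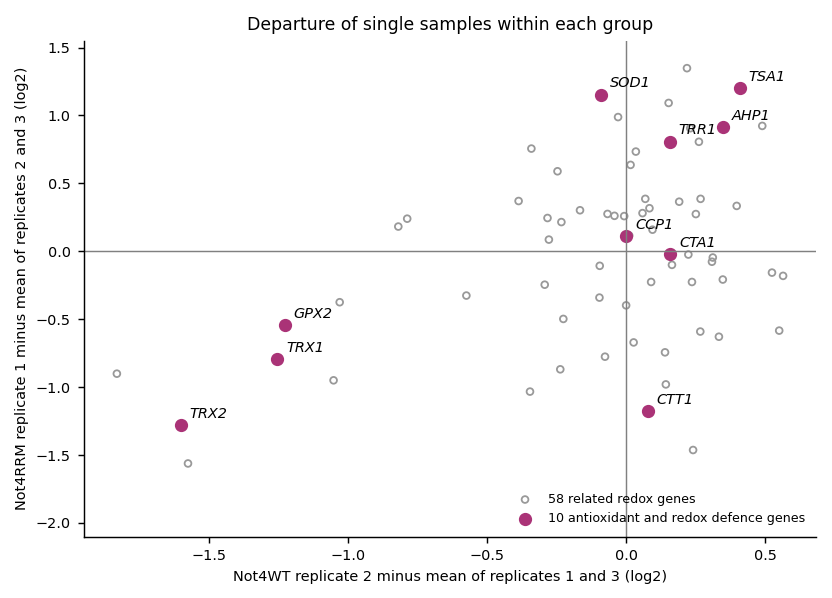
Departure of Not4WT replicate 2 from replicates 1 and 3 (horizontal axis) and of Not4RRM replicate 1 from replicates 2 and 3 (vertical axis). Both are log2 differences of TMM-scaled values, for the 10 genes (filled, named) and 58 related genes of redox defence and other roles (open). *TRX2*, *TRX1* and *GPX2* lie to the lower left, *TSA1*, *SOD1*, *AHP1* and *TRR1* at the top, and *CCP1* and *CTA1* near the centre.

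Levels between genes were compared as TMM-scaled counts per kilobase of coding sequence. In Not4WT *AHP1* had the highest level at 45824 per kilobase (33755 to 52789 over the replicates), above 99.0% of tested genes. *TRX1* at 20881 and *TSA1* at 20462 followed with overlapping ranges, then *SOD1* at 13253. *TRX2* at 4665 and *TRR1* at 4068 overlapped, *CCP1* lay below at 2109 and *CTT1* at 804, and *GPX2* at 414 and *CTA1* at 297 overlapped at the end of the order. The peroxiredoxin and thioredoxin genes thus had levels far above those of the catalase genes. In Not4RRM *AHP1* was again first, at 61953 per kilobase, and *CTA1* last, at 231. *GPX2*, at 1166 (890 to 1420), was then above *CTT1* at 637 (344 to 879), while in Not4WT its range of 217 to 541 lay below the 763 to 833 of *CTT1*, and its percentile among all tested genes was 75.9 against 54.0 in Not4WT.

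Several of the 10 genes have a close relative in the genome, and how the authors assigned reads that match more than 1 gene is not given in the sources used here. *TRX1* and *TRX2* are 73.7% identical over the shorter coding sequence, and *TSA1* is 78.5% identical to *TSA2*. *TRR1* and the mitochondrial reductase gene *TRR2* are 75.8% identical, and *GPX2* is 70.8% identical to *HYR1* and 60.3% to *GPX1*. The longest stretches without a mismatch are shown for the pairs of *GPX2* and *TRX2*, the genes with the largest differences, because they set how much sequence a read would need to tell the copies apart. They lie at chrII:707894-707916 on the forward strand in *GPX2* and chrVII:913115-913131 on the reverse strand in *TRX2*.
GPX2 and HYR1: ggtatcaaatggaattttgaaaa
TRX1 and TRX2: ccatgtaaaatgattgc
The runs are 23 and 17 bases long, and those of *TSA1* with *TSA2* and of *TRR1* with *TRR2* are 14 and 20 bases. The relatives of *GPX2* had smaller fold changes. *GPX1* measured 46, 29 and 73 scaled counts in Not4WT and 40, 77 and 76 in Not4RRM (log2 fold change 0.54, limma adjusted p = 0.533). *HYR1*, whose product is the peroxidase that relays the peroxide signal to Yap1, had a log2 fold change of -0.30 (limma adjusted p = 0.563). *TSA2* had a log2 fold change of 0.39 (limma adjusted p = 0.341).

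The related genes were taken from a list of redox defence genes together with 8 general stress, 7 heme synthesis and 5 peroxisomal beta-oxidation genes. It has 58 genes in 13 roles, and all 58 were tested. Of these, 34 had a positive and 24 a negative log2 fold change with a median of 0.08 (27 and 31 with a median of -0.04 under equal totals), and 0 passed limma's threshold, while 8 of the higher and 4 of the lower genes had an unadjusted p under 0.05, beside 9.84% and 6.06% of all tested genes. With TMM scaling all Not4RRM values were above those of Not4WT in 9 genes (12.4% of all tested genes) and below in 9 (12.2%). In the values as deposited this was so in 4 higher genes (7.89% of all tested genes) and 14 lower ones (18.7%), so that the balance of the 2 directions rested on the scaling. The list holds 5 genes of chromosome VIII (*SOD2*, *TRR2*, *GND1*, *SKN7*, *OYE2*), named for their position after their values were seen, and all 5 were positive with a median of 0.49. Over the 53 genes outside it, 29 were positive and 24 negative and the median was 0.04. Of these 53, 4 higher and 4 lower genes had an unadjusted p under 0.05 by limma. With TMM scaling, 5 were higher and 9 lower without overlap. Shares over all tested genes outside chromosome VIII were not computed, and the shares given above include that chromosome.

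*SOD2*, which encodes the mitochondrial manganese superoxide dismutase, measured 3270, 3876 and 2956 scaled counts in Not4WT and 4505, 5782 and 4594 in Not4RRM. The groups did not overlap, unlike those of *SOD1*, and the log2 fold change was 0.68 (SE 0.19, limma adjusted p = 0.176), close to the 0.65 median of its chromosome. *CCS1*, the copper chaperone of Sod1, resembled *SOD1* across the samples, with 2703, 3044 and 2478 in Not4WT and 5037, 2500 and 2135 in Not4RRM, where replicate 1 alone was high. It is named after its values were seen. The 4 peroxiredoxin and sulfiredoxin genes were all positive, from 0.05 to 0.53, except that *DOT5*, the lowest, was at -0.08 under equal totals, -0.15 with the length trend removed and -0.24 without Not4RRM replicate 1, with the mitochondrial *PRX1* at 0.53 (limma adjusted p = 0.282). The mitochondrial thioredoxin *TRX3* and reductase *TRR2* had log2 fold changes of 0.51 and 0.49, and their groups were apart only with TMM scaling and overlapped in the values as deposited (limma adjusted p = 0.351 and 0.297).

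The glutathione genes, which make, reduce or conjugate glutathione, had 2 positive and 3 negative values (0 and 5 under equal totals). *GTT2*, a glutathione transferase, measured 723, 663 and 501 scaled counts in Not4WT and 410, 364 and 299 in Not4RRM. All its Not4RRM values were lower, and its log2 fold change of -0.68 (limma adjusted p = 0.178) was the widest of the role. The 8 glutaredoxin genes were all positive with TMM scaling, with a median of 0.19, and *GRX6*, the lowest at 0.02, was at -0.10 under equal totals and -0.008 with median-of-ratios scaling. With the length trend removed 4 of the 8 were positive, and 5 of the 8 without Not4RRM replicate 1. The groups overlapped in all 8. *GRX7* had the largest value, 1.04 (SE 0.57, limma adjusted p = 0.394), with 472, 200 and 679 in Not4WT and 373, 970 and 1201 in Not4RRM, low in the same samples as *TRX2*. The methionine sulfoxide reductase *MXR1*, which draws on thioredoxin, had 211, 76 and 317 in Not4WT and 187, 331 and 354 in Not4RRM, again with Not4WT replicate 2 and Not4RRM replicate 1 lowest in their groups. Its log2 fold change was 0.82 (limma adjusted p = 0.457).

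Among the regulators, *YAP1* had a log2 fold change of -0.23, *YBP1*, which encodes a partner of Yap1, of -0.03, *SKN7* of 0.29, *MSN2* of -0.32 and *MSN4* of -0.35. With TMM scaling the groups overlapped in all 5. In the values as deposited, every Not4RRM value of *YAP1* (275 to 378) and *MSN2* (255 to 450) was below every Not4WT value (400 to 433 and 458 to 536), as in 18.7% of all tested genes. The limma adjusted p-values of the 5 were 0.496 or more. The 4 other Yap1 targets were *OYE2*, *OYE3*, *ATR1* and *FLR1*, and with TMM scaling the groups did not overlap in any of them, with 3 higher (12.4% of all tested genes) and 1 lower (12.2%). As deposited, *ATR1* overlapped, with 130 to 163 in Not4WT and 142 to 226 in Not4RRM. The other 3 did not, with *OYE2* and *OYE3* higher (7.89% of all tested genes) and *FLR1* lower (18.7%). *OYE3*, an NADPH oxidoreductase, measured 250, 344 and 292 in Not4WT and 352, 549 and 491 in Not4RRM (log2 fold change 0.76, SE 0.22, limma adjusted p = 0.181). *FLR1*, a multidrug exporter, measured 1438, 1499 and 1111 in Not4WT and 778, 907 and 734 in Not4RRM, and is named with *OYE2* and *ATR1* after the values were seen. Of the NADPH-producing pentose phosphate genes, *GND1* on chromosome VIII was positive at 0.45 (limma adjusted p = 0.296) and the other 3 were negative.

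Heme is the cofactor of the catalases and of cytochrome c peroxidase. *HEM1*, which encodes the first enzyme of heme synthesis, measured 4240, 5276 and 3825 scaled counts in Not4WT and 2446, 2638 and 2416 in Not4RRM. The groups did not overlap, and the log2 fold change was -0.69 (SE 0.18, limma adjusted p = 0.161). Of the 7 heme synthesis genes 4 were negative and 3 positive with a median of -0.05 (6 and 1 under equal totals), and the groups were also apart in *HEM14*, named after its values were seen, at -0.47 (limma adjusted p = 0.32). Without Not4RRM replicate 1, 5 of the 58 genes passed limma's threshold: *HEM14* (-0.71, adjusted p = 0.0305), *GPH1* (-0.999, adjusted p = 0.0359), *OYE2* (0.68, adjusted p = 0.0445), *OYE3* (0.94, adjusted p = 0.0314) and *SOD2* (0.73, adjusted p = 0.0455), where 6.42% of all tested genes passed.

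**Figure D4:**
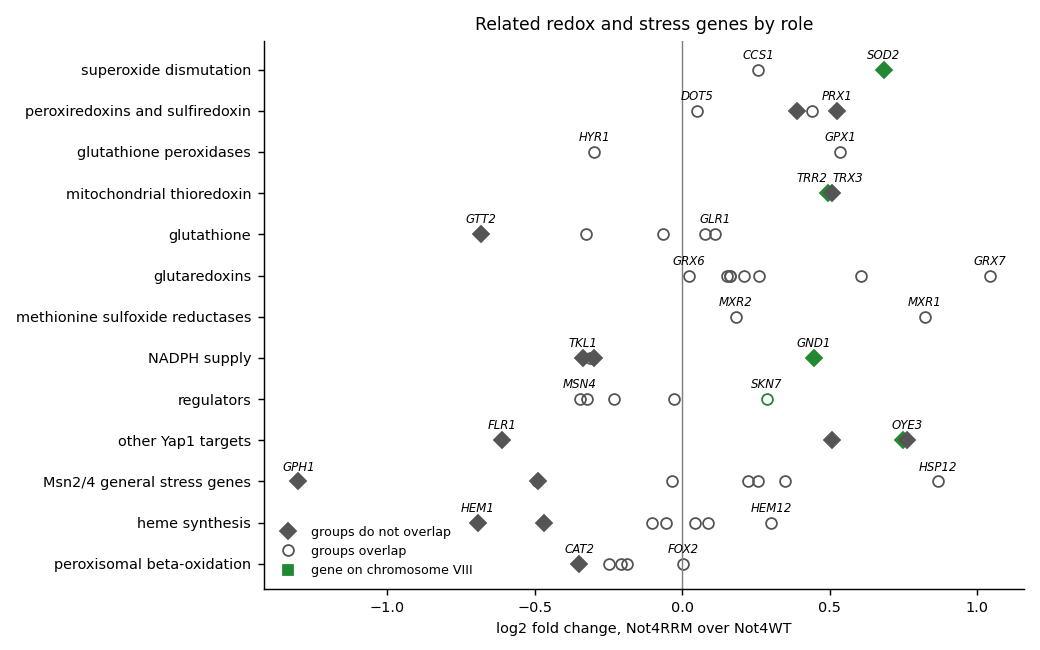
Log2 fold change of Not4RRM over Not4WT (horizontal axis, TMM-scaled values) for 58 related genes in 13 roles, where filled diamonds mark genes whose groups do not overlap, open circles those that overlap and green the 5 genes of chromosome VIII. All 8 glutaredoxin genes lie above 0 with overlapping groups (7 of them under equal totals and median-of-ratios scaling, 5 without Not4RRM replicate 1 and 4 with the length trend removed), *GPH1* at -1.30 lies farthest below 0, and the 5 green points lie above 0.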

How the data were processed

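The 6 RNA-seq samples were grouped by their titles, and the columns of the deposited table match them, with 0 left unmapped. The authors aligned Ion Torrent reads to the S288C transcriptome with STAR (R64 and STAR per the submitters' processing notes, with versions not given in the sources used here), counted them for each transcript and then brought all samples down to the lowest coverage. The deposited values are rounded, their totals differ by 66 at most, and they were treated as a score and not as raw counts. Depth before scaling is unknown, so counting error could not be given. The labels and the study's methods name different library kits. Of the table, 1 row without a gene name was left out.

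Values were divided by TMM factors (0.929 to 1.08, trimming 0.3 of ratios and 0.05 of levels, in own code), a pseudocount of 1 was added, and limma 3.58.1 in R 4.3.3 was fitted to log2 values of all genes with at least 3 samples at 10 or more and a total of at least 15, with group as the single term and Benjamini-Hochberg adjustment. The trend with coding length was removed by loess (span 0.5). In simulated counts with the mean levels of these genes, all 200 genes changed 3-fold were called with the right sign, of 204 called and 5804 tested. Without change, 0 of 5782 were called. The simulated counts had a fixed dispersion for all genes, with no replicate that stood apart and no trend with length. They tested the code, and the power to find a 3-fold change in the real samples was not measured. Motifs and coding identities were computed with Biopython 1.88 and Python 3.11.15 from the RefSeq R64 genome.

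The genes, the related list and the markers were chosen with earlier results of these data known. Named are all 10 genes, the close relatives, *SOD2*, the regulators, the gene of each related role with the widest fold change, genes called over all tested genes and the strain markers. Alternatives were other scalings, pseudocounts, filters, prior variance, weights, fold threshold, the study's own steps, a replicate block, removal of the length trend and leaving out each sample.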

Additional observations from a re-analysis of the deposited data

How the results depend on the processing

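*GPX2*, *TRX2*, *CCP1* and *CTA1* kept their direction under all 23 alternatives. Their log2 fold changes were 0.99 to 1.78, 0.15 to 1.28, -0.65 to -0.48 and -0.49 to -0.25. The alternatives reuse the same 6 samples and are not independent of each other. As the groups did not overlap in *GPX2*, *CCP1* and *CTA1*, leaving out or weighting samples could hardly turn their direction. *GPX2* passed under 5 of the alternatives. In 1 of these, the study's own steps, the threshold was the study's and not limma's. The others were sample quality weights and the fits without Not4RRM replicate 1, alone, with the length trend removed, or with Not4WT replicate 2 also left out. The cause of the changes below was not tested. The study's own steps called 2 of the 10 genes, 5 of the 58 related genes and 352 genes in all, with a related median of -0.037, which was -0.042 under equal totals. Sample quality weights called 2, 14 and 1061, with medians of -0.038 (the 10 genes) and -0.043 (related), *SOD1* at -0.12 and *TSA1* at -0.049. Removing the length trend called 5 genes in all, with medians of -0.065 and -0.011 and *TRX1* at -0.13. Same-numbered deviations from the group means correlated at 0.07, -0.15 and 0.38, and unlike-numbered ones at -0.371 to 0.299. Deviations within a group depend on each other, so these values do not settle whether replicate numbers pair the samples. A replicate block changed no call (median 0.25), and together with removal of the length trend it gave medians of -0.065 and -0.011 and *TRX1* at -0.13. Leaving out each sample in turn gave 0 to 1 of the 10 called, 0 to 5 of the related and 0 to 372 in all, the highest without Not4RRM replicate 1. The medians were -0.096 to 0.272 and -0.062 to 0.135. Of the 10, 3 to 5 were without overlap, with 5 without Not4RRM replicate 1, beside 27.3% of tested genes higher and 25.2% lower. Leaving out single samples took *SOD1* from -0.12 to 0.498, *TSA1* from -0.157 to 0.508, *TRX1* from -0.198 to 0.541 and *TRR1* from -0.415 to 0.014. Added after seeing the data were 4 alternatives. The length trend removed without Not4RRM replicate 1 called 1, 6 and 395, with medians of -0.202 and -0.03, 5 of the 10 without overlap, *CTT1* at 0.043, *AHP1* at -0.143, *SOD1* at -0.379 and *TSA1* at -0.324. The same without Not4WT replicate 2 instead gave medians of -0.021 and -0.021 and *TRX1* at -0.382. Without both Not4WT replicate 2 and Not4RRM replicate 1, the calls were 1, 9 and 493, with medians of -0.017 and -0.06, 5 of the 10 without overlap, *SOD1* at -0.134 and *TSA1* at -0.004. The last 2 counts of 5 without overlap have no share of all tested genes beside them, as none was computed for these settings. TMM factors from genes outside chromosome VIII changed no call. Depth before scaling is unknown and each group has 3 samples, so that small changes could not be told from the spread, and whether *GPX2* passed depended on the samples, weights and test used.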

Other observations

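Further roles among the 58 related genes, which share regulators or compartments with the antioxidant genes, were read from the same fit. Among 8 general stress genes of Msn2 and Msn4, 4 had a positive and 4 a negative log2 fold change, with a median of 0.09 (-0.03 under equal totals), and 0 passed limma's threshold. *GPH1*, which encodes glycogen phosphorylase, measured 2324, 3167 and 3165 scaled counts in Not4WT and 685, 1525 and 1147 in Not4RRM. All its Not4RRM values were lower, replicate 1 most of all, and the log2 fold change was -1.30 (SE 0.31, limma adjusted p = 0.14). *HSP12*, the gene of a small membrane-associated stress protein, measured 888, 1195 and 1997 in Not4WT and 1461, 2868 and 2377 in Not4RRM, with overlapping groups and a log2 fold change of 0.87 (limma adjusted p = 0.305). It is named after its values were seen, as the gene of this group farthest above 0. *CTT1*, which is also a known target of Msn2 and Msn4, lay between them at -0.44.

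Of 5 genes of peroxisomal beta-oxidation, a source of hydrogen peroxide in the compartment of catalase A, 4 had a negative log2 fold change and the median was -0.21 (5 under equal totals and median-of-ratios scaling). *CAT2*, the carnitine acetyltransferase gene, measured 362, 335 and 408 in Not4WT and 279, 285 and 232 in Not4RRM, without overlap (log2 fold change -0.35, limma adjusted p = 0.351). The value of *CTA1* was -0.36.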
